A study of Mus musculus with 8 samples.

Results

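Integrins are the transmembrane receptors by which cells hold on to the extracellular matrix, and focal adhesions are the plaques that form where clustered integrins are coupled to actin. The 34 genes described here are 13 integrin alpha subunits, 7 beta subunits and 14 cytoplasmic proteins of the plaque. They were chosen by name, with earlier results of these data known. The rows of these 34 genes were taken from the 39089 genes counted in each of 8 samples. A functional integrin is a pair of 1 alpha and 1 beta chain, and the pair sets the ligand. Talins and kindlins bind the beta tail and switch the receptor on, the ILK-PINCH-parvin complex and vinculin tie it to actin, and FAK (*Ptk2*) with paxillin and p130Cas turns adhesion into a kinase signal. In prostate epithelium, laminin-binding integrins anchor cells to the basement membrane, and the loss of some of them accompanies tumor progression.

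The RNA came from Myc-CaP, a *Myc*-driven line of mouse prostate cancer, whose cells carried an empty control vector (WT) or a CRISPR guide targeting *Arid1a* (*Arid1a* KO), which encodes a subunit of the SWI/SNF chromatin remodeler. Cells of both kinds were grown as subcutaneous tumors in male FVB mice, aged 6 weeks at inoculation. From day 16 the mice received JSH-23, an inhibitor of the nuclear entry of the NF-κB subunit p65, or corn oil as the vehicle, by gavage every day for 2 weeks. Epithelial cells were sorted from the tumors as EpCAM-positive and CD45-negative, and each of the 4 groups (WT with vehicle, *Arid1a* KO with vehicle, WT with JSH-23, *Arid1a* KO with JSH-23) had 2 samples. The labels give no link between samples and tumors, so the p-values below measure the spread between these samples only, and 1 line with 1 vector and 1 guide stands for each genotype.

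Total counts ranged from 16401581 to 21972231 per sample, so that 3 counts equalled 0.137 to 0.183 CPM, the count scaled by the size of the library. *Arid1a* itself was lower in every *Arid1a* KO sample than in every WT sample, at 1862 and 2186 counts against 2623 and 2745 with vehicle, a log2 difference of -0.60 (standard error 0.036, adjusted p = 1.39e-23, edgeR). Markers of the labelled cell type were uneven: *Epcam*, the antigen of the sort, had 0 to 4 counts in every sample, *Cdh1* 1 to 19 and *Krt18* 4 to 18, whereas *Krt8* had 540 to 2308 and *Krt19* 207 to 2106. *Ptprc*, which encodes CD45, had 0 to 10 counts. Of 10 fibroblast markers, *Pdgfra* had 704 to 1265 counts and 3 had at most 3 counts in every sample. The 10 summed, with vehicle, to 61.8 and 67.9 CPM in WT and 67 and 67.5 CPM in *Arid1a* KO samples. With JSH-23 they summed to 64.9 and 63.3 CPM and to 45.6 and 43.7 CPM, most of it *Pdgfra*. *Fn1* (fibronectin) had the most counts of any gene in every sample. The part of fibroblasts was not tested. *Hoxb13*, a homeobox factor of the prostate epithelium that was looked up after its values had been seen, had 947 to 1634 counts. In sorted bulk RNA, fewer cells of a type and less RNA per cell cannot be told apart.

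JSH-23 inhibits NF-κB, so the start regions of the subunits that were lower with it are shown first. RefSeq start windows (GRCm38.p6, 250 bases before to 50 after a start) were found for 24 of the 34 genes, in 30 windows. The next lines give bases 250 to 51 before the start of 3 such subunits, *Itga2* at chr13:114932151-114932350, *Itgb6* at chr2:60722654-60722853 and *Itgb7* at chr15:102231986-102232185, all on the minus strand and written 5′ to 3′. The *Itgb7* stretch precedes a RefSeq start inside the counted gene, which spans chr15:102215994-102233405. No capitals appear because no searched motif lies in these stretches. The *Itga2* window does hold a match to GGGCGG, a searched motif, just after the start site and so outside the printed bases.
Itga2: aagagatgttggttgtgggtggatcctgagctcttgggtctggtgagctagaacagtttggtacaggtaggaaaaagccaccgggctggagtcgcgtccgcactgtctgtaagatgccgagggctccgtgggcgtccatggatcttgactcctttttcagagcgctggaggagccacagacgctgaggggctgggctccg
Itgb6: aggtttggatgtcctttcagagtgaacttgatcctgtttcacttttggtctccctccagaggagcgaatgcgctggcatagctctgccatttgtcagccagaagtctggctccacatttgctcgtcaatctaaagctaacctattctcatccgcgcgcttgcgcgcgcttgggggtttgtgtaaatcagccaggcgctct
Itgb7: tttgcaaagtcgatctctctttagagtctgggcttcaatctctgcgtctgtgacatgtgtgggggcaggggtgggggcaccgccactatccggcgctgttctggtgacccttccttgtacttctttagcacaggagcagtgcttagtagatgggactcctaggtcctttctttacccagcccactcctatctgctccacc

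The motifs, searched on both strands, were the κB consensus bound by NF-κB, TGANTCA (the AP-1 site), GGGCGG (the GC box) and CACGTG (the E-box). The κB consensus was present in 8.46% of all 32851 start windows and in 3 of the 30 windows of these genes, those of *Ilk*, *Itga3* and *Vcl*. Each is given in 30 bases with the match in capitals, to set beside the levels of these genes under JSH-23. *Ilk* lies at chr7:105736667-105736696 on the plus strand, where 2 overlapping matches start 48 and 47 bases before the start site. *Itga3* lies at chr11:95076703-95076732 on the minus strand, with its match starting 8 bases before the start site. *Vcl* lies at chr14:20929169-20929198 on the plus strand, with its match 219 bases before the start site. The *Ilk* and *Itga3* stretches lie within the spans of the counted genes, at RefSeq starts inside them.
Ilk: gcggccggacGGGAGTTCCCCcggagaagg
Itga3: ggcgcgctggGGAGGATCCCtccctcctgc
Vcl: gcccttataaGGAGCGCCCCgcgagagggt

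The GC box was present in 17 of the 30 windows and in 35.7% of all windows, TGANTCA in 3 windows (7.81% of all) and CACGTG in 2 (7.15% of all). A match describes letters and not a bound site, and the windows of *Itgb4* and 9 other genes were not analysed here.

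Levels of different genes were compared on the TPM scale, which divides counts by gene length, as the mean over the 8 samples. *Itga3*, the laminin-binding alpha3 chain, led the alpha subunits at 469 TPM (range 409 to 522). It was followed by *Itga5*, the alpha chain of the fibronectin receptor, at 105 TPM (76.4 to 122), by *Itgav*, the alpha chain of the vitronectin receptors, at 65.5 TPM (43.2 to 86.6), and by the laminin-binding *Itga6* at 49.1 TPM (38.8 to 59.2). The ranges of *Itga5* and *Itgav* overlapped, as did those of *Itgav* and *Itga6*, while *Itga3* stood clear of all of them.

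Below these 4 chains the levels dropped sharply. *Itga7*, a laminin receptor of muscle, was at 3.62 TPM (2.99 to 3.93), and the collagen-binding *Itga2* at 0.776 TPM (0.328 to 1.57). *Itga10*, *Itgae* and *Itga8* were between 0.325 and 0.51 TPM, and *Itga9*, *Itga11*, *Itga1* and *Itga4* were under 0.1 TPM. From *Itga2* downward each range overlapped that of the next gene.

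*Itgb1*, the common partner of most alpha chains, led the beta subunits at 328 TPM (304 to 350). The vitronectin-receptor chains *Itgb5* and *Itgb3* followed at 105 TPM (86.2 to 126) and 102 TPM (89.2 to 125), with overlapping ranges. *Itgb7*, known as a lymphocyte chain, was at 2.72 TPM, *Itgb4*, the laminin-binding chain of hemidesmosomes, at 1.66 TPM, *Itgb6*, an epithelial chain that binds latent TGF-β, at 0.673 TPM and *Itgb8* at 0.186 TPM.

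As shares of the summed TPM of all 13 alpha chains, *Itga3* took, with vehicle, 65.8% in WT and 63.9% in *Arid1a* KO samples and, with JSH-23, 66.7% and 74.3%. The share of *Itgav* was 10.9%, 10.4%, 9.46% and 6.68% in the same order. *Itgb1* took between 57.8% and 63.8% of the 7 beta chains in every sample. With vehicle the summed alpha TPM was 791 in WT and 650 in *Arid1a* KO samples, and with JSH-23 it was 686 and 653.

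Among the plaque proteins, vinculin (*Vcl*) was at 179 TPM, the adaptor *Bcar1* (p130Cas) at 103 TPM, talin-1 (*Tln1*) at 91.4 TPM and the ILK pseudokinase (*Ilk*) at 90.3 TPM. Paxillin (*Pxn*) was at 77.2 TPM, alpha-parvin (*Parva*) at 51.8 TPM, kindlin-2 (*Fermt2*) at 48.9 TPM, zyxin (*Zyx*) at 46.7 TPM and FAK (*Ptk2*) at 39.6 TPM. Talin-2 (*Tln2*) was at 24.7 TPM, PINCH1 (*Lims1*) at 24.6 TPM and the FAK relative PYK2 (*Ptk2b*) at 14.2 TPM. The paralogs *Parvb*, with 0 to 3 counts, and kindlin-1 (*Fermt1*), with 0 to 1 count, were at or under the limit of 3 counts in every sample.

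**Figure D1:**
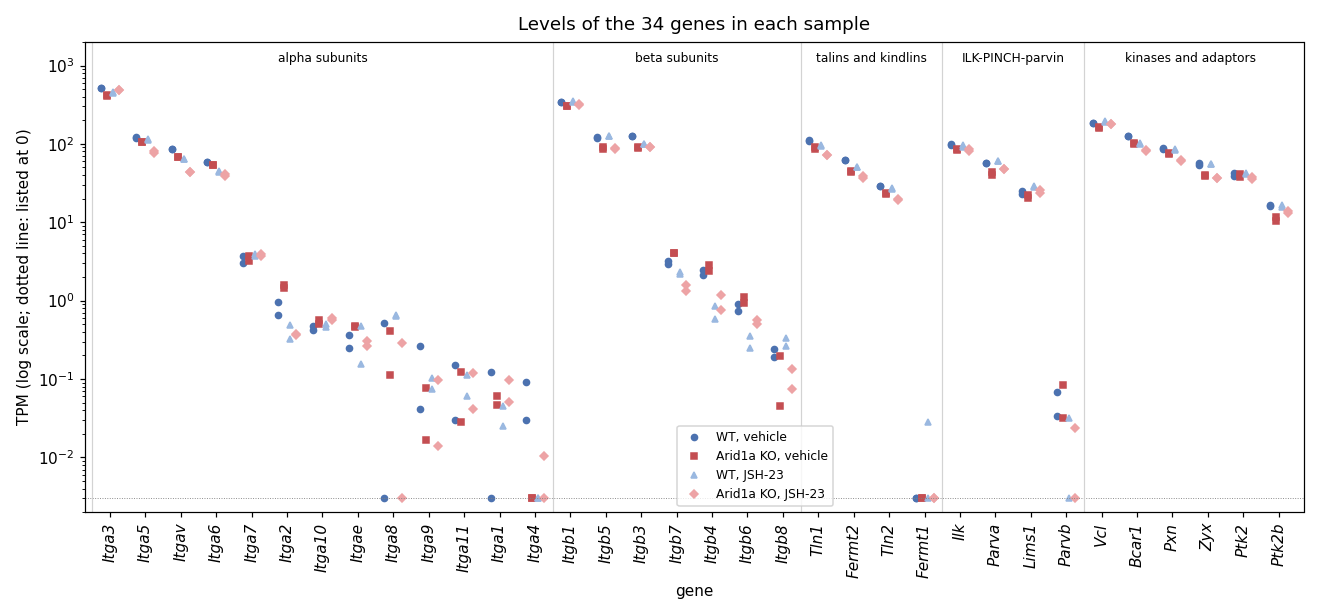
TPM of the 34 genes (log axis, gene names along the horizontal axis) in each of the 8 samples, with a symbol per group and values of 0 drawn on the dotted line. *Itga3* and *Itgb1* lead the chains at 469 and 328 TPM on average, and the next 2 or 3 chains of each kind lie between about 49.1 and 105 TPM before a drop to 3.62 TPM or less.

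Of the 34 genes, 27 passed the filter on low counts and were tested. The 7 that did not were *Itga1* (0 to 5 counts), *Itga4* (0 to 6), *Itga9* (1 to 13), *Itga11* (1 to 5), *Itgb8* (1 to 7), *Fermt1* and *Parvb*, and differences in them were not detectable at this depth. A gene is called higher or lower when edgeR's quasi-likelihood test gave a Benjamini-Hochberg adjusted p under 0.05 over all 13921 tested genes and the change was at least 1.5-fold. Counts by adjusted p alone are given beside the calls, because the spread within the pairs was so small (a common biological coefficient of variation of 1.61%) that differences of a few percent passed. Each count is set beside the percentage of all tested genes that passed the same rule.

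Loss of *Arid1a* with vehicle went with lower RNA levels of most of the abundant chains and plaque proteins, each by less than 1.5-fold, and with a higher level of *Itga2*. By the call, 1 of 27 genes was higher (*Itga2*; 7.48% of all genes) and 0 were lower (5.16% of all genes). By adjusted p alone, 2 were higher (25.0% of all genes) and 18 were lower (25.5% of all genes), with a median log2 difference of -0.18 over the 27 against 0.0032 over all tested genes. Abundant genes were lower more often: of the 4575 genes that averaged 50 CPM or more, 40.7% were lower by adjusted p alone, and of the 18 members among them 17 were.

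*Itga2*, the collagen-binding alpha2 chain (chromosome 13, 114833081 to 114932100), was, with vehicle, at 1.84 and 2.71 CPM in the WT samples and at 4.42 and 4.12 CPM in the *Arid1a* KO samples. The difference was 1.87-fold (log2 0.90, standard error 0.254, adjusted p = 0.00194, edgeR). Both *Arid1a* KO samples were above both WT samples, on 31 to 85 counts per sample. The call was kept in 15 of 17 other settings, with log2 differences from 0.49 to 1.20. Without WT replicate 1 with vehicle, the difference was 0.65 (adjusted p = 0.0706, edgeR). *Itgb7* was the other subunit that was higher by adjusted p, at 9.12 and 9.25 CPM against 7.30 and 6.71 CPM, a log2 difference of 0.39 (standard error 0.14, adjusted p = 0.0153, edgeR) that did not pass in DESeq2 (adjusted p = 0.125).

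Among the abundant subunits, *Itgb3* was lower in *Arid1a* KO tumors, at 210 and 217 CPM against 295 and 295 CPM in WT tumors, a log2 difference of -0.47 (standard error 0.026, adjusted p = 3.8e-25, edgeR). *Itgb5* was at 119 and 124 CPM against 163 and 166 CPM, a log2 difference of -0.44 (adjusted p = 9.9e-19, edgeR). *Itgav*, the partner of both, was at 242 and 244 CPM against 314 and 311 CPM, a log2 difference of -0.36 (adjusted p = 1.36e-20, edgeR). All 3 chains of these vitronectin-binding pairs were thus lower in both *Arid1a* KO samples than in either WT sample, a separation not counted over all genes.

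*Itga3* was at 864 and 889 CPM in *Arid1a* KO and at 1108 and 1099 CPM in WT tumors, a log2 difference of -0.33 (standard error 0.017, adjusted p = 4.57e-28, edgeR). *Itgb1* was at 504 and 503 CPM against 573 and 572 CPM, a log2 difference of -0.18 (adjusted p = 6.33e-13, edgeR). The fibronectin-receptor chain *Itga5* (log2 -0.17) and *Itga6* (log2 -0.13) moved less, and both passed the adjusted p. *Itgb4*, the partner of *Itga6* in hemidesmosomes, was at 7.24 and 6.01 CPM against 6.23 and 5.35 CPM and did not pass (log2 0.19, adjusted p = 0.394, edgeR).

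Of the 12 tested plaque genes, 11 were lower by adjusted p alone, as were 25.5% of all genes and 40.7% of genes that averaged 50 CPM or more. PYK2 (*Ptk2b*) differed most, at 18.5 and 21 CPM against 28.7 and 29.5 CPM (log2 -0.56, standard error 0.082, adjusted p = 2.81e-08, edgeR). *Zyx*, a LIM protein recruited to adhesions under tension, was at 67.6 and 65.3 CPM against 98.4 and 92.4 CPM (log2 -0.52, adjusted p = 1.51e-16, edgeR). Kindlin-2 (*Fermt2*, log2 -0.49) and alpha-parvin (*Parva*, log2 -0.44) came next.

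The talins were at log2 -0.31 (*Tln1*, standard error 0.023) and -0.31 (*Tln2*, standard error 0.034), *Bcar1* at -0.32 and *Pxn* at -0.21. *Ilk* was at log2 -0.20, and *Lims1* and *Vcl* were both at -0.18. *Ptk2* (FAK) was the 1 plaque gene that did not pass, at 101 and 94.2 CPM against 106 and 97.3 CPM (log2 -0.06, standard error 0.042, adjusted p = 0.232, edgeR). The counts of 2 higher and 18 lower were 2 and 18 with scaling by library size alone, and 1 to 2 and 17 in limma on the TPM values. With a larger spread assumed, a biological coefficient of variation of 0.1, they were 1 and 6.

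With JSH-23 the same genotype comparison was more mixed. *Itgb4* and *Itgb6* were called higher (2 of 27, 3.74% of all genes) and *Itga8* lower (1 of 27, 4.97% of all genes). By adjusted p alone 6 were higher (23.2% of all genes) and 12 lower (23.8% of all genes). Scaled by library size alone these became 1 and 12, and on TPM values 1 and 19, so the number higher depended on the scaling.

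*Itga3* was at 1204 and 1209 CPM in *Arid1a* KO and at 982 and 1014 CPM in WT tumors with JSH-23, a log2 difference of 0.27 (standard error 0.016, adjusted p = 5e-24, edgeR). *Itgav* stayed lower in *Arid1a* KO tumors, at 186 and 185 CPM against 242 and 243 CPM (log2 -0.38, adjusted p = 2.28e-20, edgeR). *Itga5* was at 158 and 170 CPM against 206 and 208 CPM (log2 -0.33, adjusted p = 2.94e-15, edgeR). *Itgb5* (log2 -0.33), *Zyx* (log2 -0.40), *Tln2* (log2 -0.27), *Pxn* (log2 -0.26) and *Fermt2* (log2 -0.25) were also lower by adjusted p alone.

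The differences of *Itgb1* and *Itgb3* (both log2 0.06) and *Vcl* (log2 0.09), higher by adjusted p, turned to lower on TPM values. *Itgb4* was at 2.27 and 3.5 CPM against 2.23 and 1.52 CPM (log2 0.62, standard error 0.252, adjusted p = 0.0357, edgeR). *Itgb6* was at 1.41 and 1.25 CPM against 0.782 and 0.547 CPM, 9 to 26 counts a sample (log2 0.98, standard error 0.405, adjusted p = 0.0408, edgeR). These calls were kept in 10 of 17 and 5 of 16 other settings. Without WT replicate 2 with JSH-23 the *Itgb4* difference was 0.38, and without *Arid1a* KO replicate 2 with JSH-23 it was 0.28, neither past the threshold. For *Itgb6* the adjusted p ran from 0.0392 to 0.231 over them, and each of 6 samples, left out alone, ended its call.

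**Figure D2:**
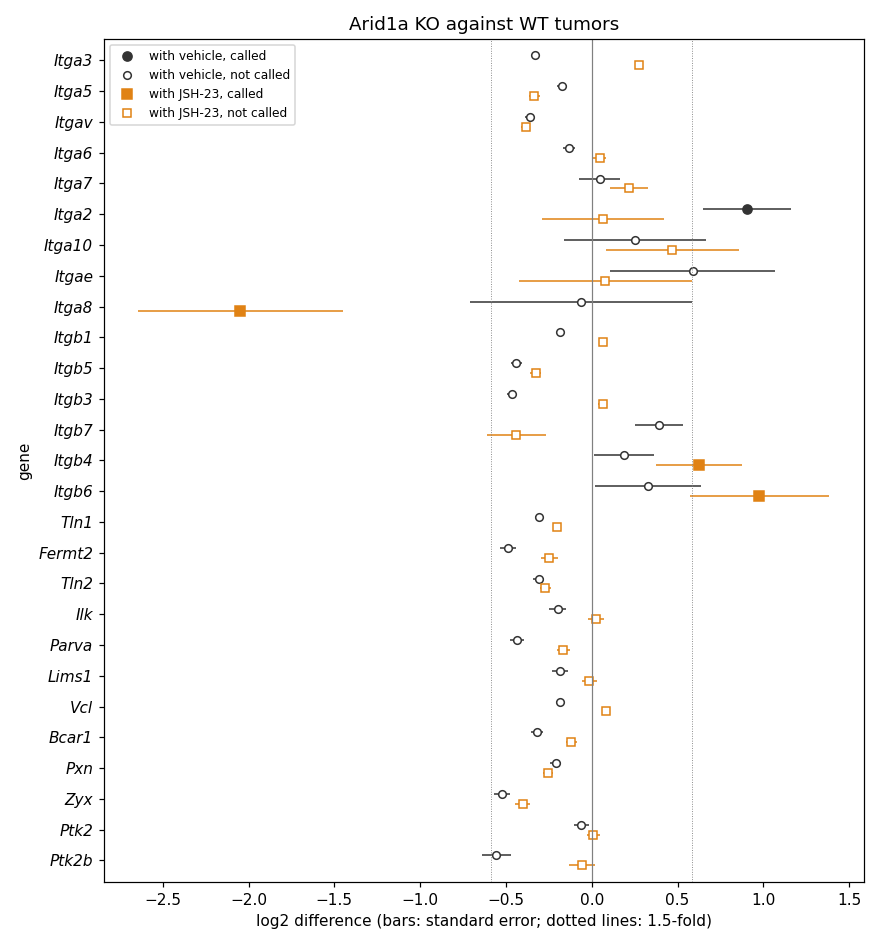
Log2 difference of *Arid1a* KO against WT tumors (horizontal axis) for the 27 tested genes, with vehicle (black circles) and with JSH-23 (orange squares), bars giving the standard error and filled symbols the called genes. With vehicle most symbols lie between 0 and the dotted 1.5-fold line on the lower side, and *Itga2* lies at 0.90.

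JSH-23 given to WT tumors went with lower levels of 3 chains of low abundance, *Itga2*, *Itgb4* and *Itgb6* (3 of 27 genes called lower, 10.2% of all genes), while *Itga8* was called higher (1 of 27, 5.55% of all genes). By adjusted p alone 6 genes were higher (28.6% of all genes) and 11 lower (27.2% of all genes). The median log2 difference was -0.02 over the 27 and -0.0061 over all tested genes.

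*Itgb4* (chromosome 11, 115974725 to 116008412) fell from 6.23 and 5.35 CPM with vehicle to 2.23 and 1.52 CPM with JSH-23, 3.06-fold (log2 -1.61, standard error 0.227, adjusted p = 6.71e-09, edgeR). *Itgb6* (chromosome 2, 60598292 to 60722603) fell from 1.54 and 1.94 CPM to 0.782 and 0.547 CPM, 2.59-fold (log2 -1.37, standard error 0.394, adjusted p = 0.00225, edgeR). *Itga2* fell from 1.84 and 2.71 CPM to 0.949 and 1.40 CPM, 1.95-fold (log2 -0.96, standard error 0.322, adjusted p = 0.00894, edgeR). Both JSH-23 samples were below both vehicle samples in these 3 called genes, and the share of all genes with this separation was not counted. The call of *Itgb4* was kept in all 17 other settings, that of *Itgb6* in 15 of 16 and that of *Itga2* in 14 of 17. The *Itga2* difference was -0.65 without WT replicate 2 with vehicle and -0.70 without WT replicate 1 with JSH-23, neither past the threshold.

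Among the abundant chains, *Itgav* was at 242 and 243 CPM with JSH-23 against 314 and 311 CPM with vehicle (log2 -0.37, adjusted p = 1.13e-20, edgeR). *Itga6* was at 114 and 109 CPM against 142 and 145 CPM (log2 -0.36, adjusted p = 2.24e-13, edgeR), and *Itgb3* at 243 and 241 CPM against 295 and 295 CPM (log2 -0.28, adjusted p = 4.74e-15, edgeR). *Itgb5* (log2 0.11), *Vcl* (log2 0.11), *Parva* (log2 0.14) and *Lims1* (log2 0.28) were higher by adjusted p. *Bcar1* (log2 -0.28), *Fermt2* (log2 -0.25) and *Tln1* (log2 -0.16) were lower, and *Itga5*, *Pxn*, *Zyx*, *Ptk2*, *Ptk2b*, *Tln2* and *Ilk* did not pass.

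In *Arid1a* KO tumors JSH-23 went with lower levels of *Itga2*, *Itgb4*, *Itgb6* and *Itgb7* (4 of 27 called lower, 16.9% of all genes), and no member was called higher (0 of 27, 9.10% of all genes). By adjusted p alone 12 were higher (33.4% of all genes) and 9 lower (34.4% of all genes). Of the genes that averaged 50 CPM or more, 52.8% were higher by adjusted p alone, and of the 18 members among them 10 were. This comparison and that of the genotypes with vehicle use the same *Arid1a* KO samples with vehicle, and it shares the JSH-23 samples of *Arid1a* KO tumors with the genotype comparison under JSH-23, so the values are given side by side and not counted together.

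*Itga2* fell from 4.42 and 4.12 CPM to 1.24 and 1.20 CPM, 3.48-fold (log2 -1.80, standard error 0.276, adjusted p = 3.72e-08, edgeR). *Itgb7* (chromosome 15, 102215994 to 102233405) fell from 9.12 and 9.25 CPM to 3.51 and 4.17 CPM, 2.38-fold (log2 -1.25, standard error 0.152, adjusted p = 4.72e-11, edgeR). *Itgb4* fell from 7.24 and 6.01 CPM to 2.27 and 3.5 CPM, 2.26-fold (log2 -1.18, standard error 0.194, adjusted p = 2.12e-07, edgeR). The 3 calls were kept in all 17 other settings.

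*Itgb6* fell from 1.99 and 2.37 CPM to 1.41 and 1.25 CPM, 1.65-fold (log2 -0.72, standard error 0.317, adjusted p = 0.0389, edgeR). Its call was kept in 10 of 16 other settings and was lost when either *Arid1a* KO sample with vehicle or either with JSH-23 was left out. The *Itga2*, *Itgb4*, *Itgb6* and *Itgb7* plot shows the 8 values of each chain.

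**Figure D3:**
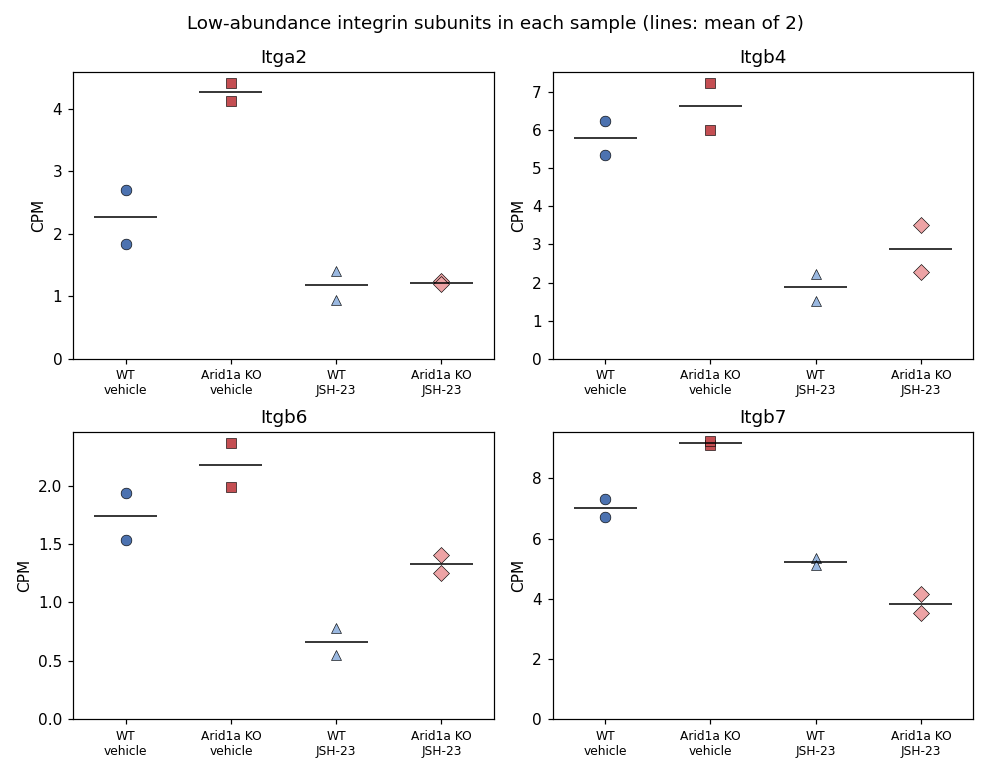
CPM (vertical axes, from 0) of *Itga2*, *Itgb4*, *Itgb6* and *Itgb7* in each sample by group, with lines at the mean of 2 samples. *Itga2* is highest in vehicle-treated *Arid1a* KO tumors, at 4.42 and 4.12 CPM. Every JSH-23 sample lies below every vehicle sample of its own genotype in all 4 genes, a separation not counted over all genes.

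Epithelial markers differed between the groups too, moving with these chains in some comparisons and not in others. The summed level of the 4 basal markers, nearly all of it *Krt15*, was, with vehicle, 29.9 and 30.6 CPM in the WT and 61 and 56.3 CPM in the *Arid1a* KO samples and, with JSH-23, 8.77 and 8.69 CPM and 29.6 and 30.5 CPM, while the defining marker *Krt5* had 0 to 1 count. The 5 luminal markers summed to 102 and 88.5 CPM and to 217 and 215 CPM with vehicle, and to 45.3 and 47 CPM and to 179 and 187 CPM with JSH-23. Nearly all of the luminal sum was *Krt8* and *Krt19*. Between genotypes under JSH-23 both sums were higher in the *Arid1a* KO samples. *Itgb4* (log2 0.62, adjusted p = 0.0357, edgeR) and *Itgb6* (log2 0.98, adjusted p = 0.0408, edgeR) were called higher too. These calls were kept in 10 of 17 and 5 of 16 other settings. In contrast, *Itga2* did not pass (log2 0.07, adjusted p = 0.903, edgeR) and *Itgb7* was lower (log2 -0.44, adjusted p = 0.0303, edgeR).

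For *Itgb7*, the 11 leukocyte markers summed to 19.4 and 20.5 CPM in the WT and 20.2 and 22.5 CPM in the *Arid1a* KO samples with vehicle, and to 19.6 and 10.6 CPM and 13.3 and 10.2 CPM with JSH-23, so that in *Arid1a* KO tumors the sum and *Itgb7* were both lower with JSH-23. The markers did not move together: with vehicle *Cd68* had 110 and 127 counts in the WT and 301 and 378 in the *Arid1a* KO samples, whereas *Lyz2* had 164 and 165 against 54 and 71. Under the inhibitor *Cd68* dropped to 165 and 153 counts in *Arid1a* KO samples, whereas *Lyz2*, at 68 and 48, overlapped its vehicle values. For this treatment effect, 1 of 4 tested leukocyte markers was lower by adjusted p and 3 did not pass, so the lower sum was not shared by the markers. Of the 11 markers, 4 had at most 3 counts in every sample, and *Itga4*, 1 of the 2 partners of *Itgb7*, had at most 6 counts. The other partner, *Itgae*, which binds E-cadherin, had 6 to 20 counts and passed the adjusted p in no comparison. The part of these cell types in the results was not tested.

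The abundant genes of *Arid1a* KO tumors had changes of less than 1.5-fold. *Itga3* was at 1204 and 1209 CPM with JSH-23 against 864 and 889 CPM with vehicle (log2 0.46, standard error 0.016, adjusted p = 5.71e-37, edgeR). *Itgb1* was at 625 and 613 CPM against 504 and 503 CPM (log2 0.30, adjusted p = 8.68e-23, edgeR), and *Vcl* at 457 and 454 CPM against 355 and 347 CPM (log2 0.38, adjusted p = 1.74e-25, edgeR). *Itgav* went the other way, at 186 and 185 CPM against 242 and 244 CPM (log2 -0.39, adjusted p = 1.28e-21, edgeR).

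All 3 tested members of the ILK-PINCH-parvin complex were higher by adjusted p alone, as were 33.4% of all genes and 52.8% of genes that averaged 50 CPM or more. *Lims1* was higher by log2 0.45 (standard error 0.044), *Parva* by 0.41 (standard error 0.041) and *Ilk* by 0.22 (standard error 0.048). *Ptk2b* was at 29.7 and 27.6 CPM against 18.5 and 21 CPM (log2 0.53, standard error 0.08, adjusted p = 2.8e-08, edgeR). *Itga5* (log2 -0.20) and *Itga6* (log2 -0.18) were lower. *Itgb3* (log2 0.25), *Itgb5* (log2 0.23), *Itga7* (log2 0.37), *Ptk2* (log2 0.13) and *Zyx* (log2 0.15) were higher, and *Tln2*, *Pxn* and *Fermt2* did not pass.

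How many of these small rises passed depended on the scaling. The TMM factors were 0.957 and 0.949 in JSH-23-treated *Arid1a* KO tumors and 1.03 and 1.03 in those with vehicle. Scaled by library size alone, the median of all genes in this comparison was at log2 -0.13, and the members by adjusted p were 10 higher and 12 lower. On log2(TPM + 1) the median was at -0.20 and the members were 6 higher and 12 lower, and *Ilk*, *Ptk2*, *Zyx* and *Itgb5* changed sign without passing.

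**Figure D4:**
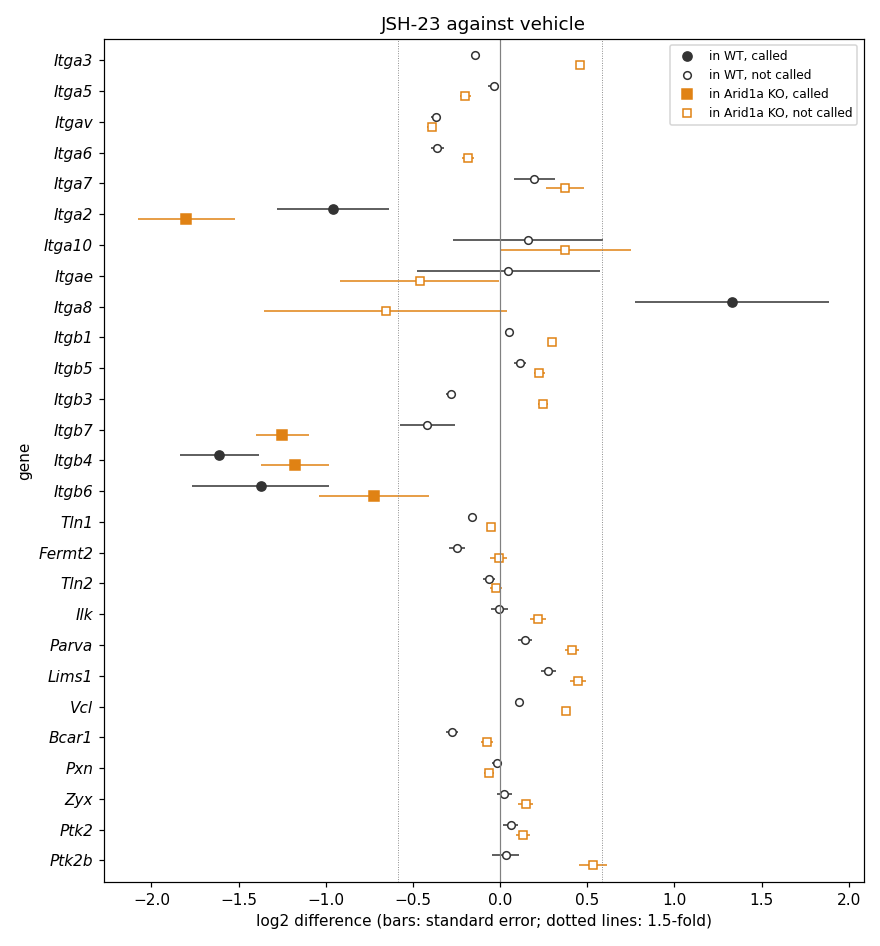
Log2 difference of JSH-23 against vehicle (horizontal axis) for the 27 tested genes in WT (black circles) and in *Arid1a* KO tumors (orange squares), bars giving the standard error and filled symbols the called genes. *Itga2*, *Itgb4* and *Itgb6* lie beyond 1.5-fold on the lower side in both genotypes, *Itgb7* does in *Arid1a* KO tumors at -1.25, and *Itga8* in WT lies at 1.33.

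Whether JSH-23 acted differently by genotype was tested as the interaction, the JSH-23 effect in *Arid1a* KO minus that in WT tumors. By the call, *Itga3* was higher (1 of 27, 3.30% of all genes) and *Itgb7* lower (1 of 27, 5.76% of all genes). By adjusted p alone 13 were higher (20.5% of all genes; 39.8% of genes with at least 50 CPM) and 2 lower (17.9% of all genes). With library size alone, where the median of all genes was at -0.11, the counts were 6 and 4, and on log2(TPM + 1), with a median at -0.17, they were 2 and 5.

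*Itga3* (chromosome 11, 95044475 to 95076844) was at log2 -0.15 under JSH-23 in WT and at 0.46 in *Arid1a* KO tumors. The interaction was 0.61 (standard error 0.023, adjusted p = 6.19e-34, edgeR), and it ran from 0.41 to 0.63 over 16 other settings. It was under 1.5-fold with library size alone (0.50) and on TPM values (0.41), and its adjusted p was 0.0551 with a coefficient of variation of 0.1. On the TPM scale, *Itga3* was at 520 ± 1.96 and 458 ± 9.6 TPM in WT (SD, n = 2), with vehicle and with JSH-23, and at 415 ± 8.44 and 485 ± 1.23 TPM (SD, n = 2) in *Arid1a* KO tumors, so the 2 genotypes moved in opposite directions on this scale too. *Itgb7* was at log2 -0.42 in WT and -1.25 in *Arid1a* KO tumors, an interaction of -0.83 (standard error 0.222, adjusted p = 0.0017, edgeR; adjusted p = 0.0594 with a coefficient of variation of 0.1).

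*Itgb3* was at log2 -0.28 under JSH-23 in WT and 0.25 in *Arid1a* KO tumors, an interaction of 0.53 (standard error 0.037, adjusted p = 5.28e-20, edgeR). *Ptk2b* had an interaction of 0.50 (standard error 0.112, adjusted p = 0.000193, edgeR). The interactions of *Itga2* (-0.84, standard error 0.438, adjusted p = 0.127, edgeR), *Itgb4* (0.44, standard error 0.308, adjusted p = 0.277, edgeR) and *Itgb6* (0.65, standard error 0.514, adjusted p = 0.338, edgeR) did not pass, and their standard errors leave room for large differences between genotypes.

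*Itga8*, which pairs with *Itgb1* and is known from mesenchymal and smooth muscle cells, had, with vehicle, 0 and 23 counts in the WT samples and 19 and 6 in the *Arid1a* KO samples. With JSH-23 it had 31 and 28 counts in the WT samples and 16 and 0 in the *Arid1a* KO samples. By these counts it was called higher with JSH-23 in WT (log2 1.33, standard error 0.557, adjusted p = 0.037, edgeR) and lower in *Arid1a* KO with JSH-23 (log2 -2.05, standard error 0.595, adjusted p = 0.00308, edgeR). The 6 mural and smooth muscle markers summed to 19 and 236 counts, 218 and 109 counts, 223 and 201 counts, and 244 and 42 counts in the same sample order, and *Acta2* to 3 and 83, 64 and 28, 80 and 64, and 85 and 0. In every pair the sample with less *Itga8* had fewer marker counts, and the part of these cells in the result was not tested. Without WT replicate 1 with vehicle, which had 0 counts, the log2 difference under JSH-23 in WT was 0.35 (adjusted p = 0.64, edgeR). Without *Arid1a* KO replicate 2 with JSH-23, which also had 0 counts, the difference between genotypes with JSH-23 was -0.97 (adjusted p = 0.193, edgeR).

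**Figure D5:**
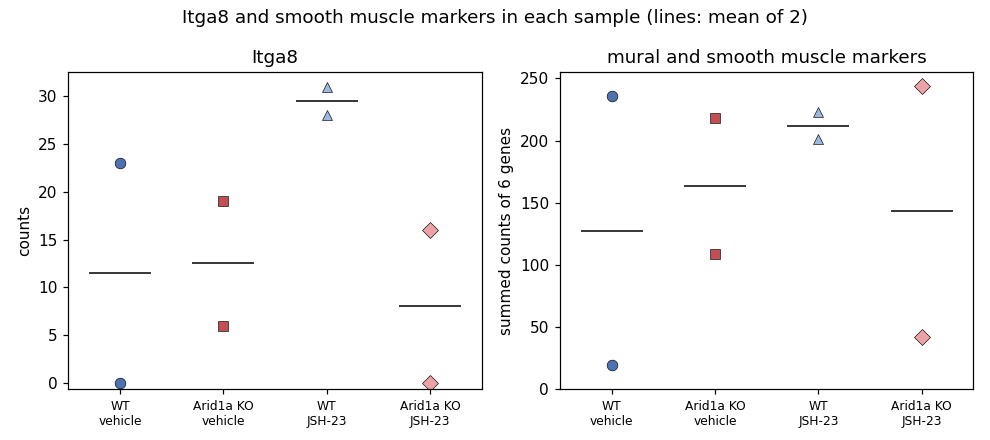
Counts of *Itga8* (left) and summed counts of 6 mural and smooth muscle markers (right) in each sample by group, with lines at the mean of 2 samples. In each group the sample with fewer *Itga8* counts also has fewer marker counts, and both samples at 0 counts of *Itga8* have the lowest marker sums, 19 and 42.

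Other genes of the pathway were read from lists chosen by name. Of 53 further focal adhesion genes, 48 were tested. In vehicle-treated *Arid1a* KO against WT tumors, 1 was called higher and 4 lower (7.48% and 5.16% of all genes). With JSH-23 in WT 3 and 5 were called (5.55% and 10.2% of all genes), and with JSH-23 in *Arid1a* KO tumors 2 and 6 (9.10% and 16.9% of all genes). *Tns4*, a tensin that lacks the actin-binding part, rose in vehicle-treated *Arid1a* KO tumors to 116 and 112 CPM from 75.3 and 73.9 CPM (log2 0.61, adjusted p = 3.36e-20, edgeR). With JSH-23 it fell in WT to 36.9 and 40.7 CPM (log2 -0.95, adjusted p = 6.95e-25, edgeR). In *Arid1a* KO tumors it fell to 74.7 and 76.8 CPM (log2 -0.59, adjusted p = 1.82e-20, edgeR). *Lims2*, the PINCH2 paralog of *Lims1*, fell in *Arid1a* KO tumors to 14.4 and 12.7 CPM from 28.4 and 28.4 CPM (log2 -1.07, adjusted p = 5.82e-17, edgeR), and the actin crosslinker *Flna* fell to 692 and 681 CPM from 1060 CPM in both WT samples (log2 -0.63).

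The kinase *Pak1* rose with JSH-23 in WT (log2 0.69) and in *Arid1a* KO tumors (log2 0.87), and *Lpp*, a zyxin relative, rose in *Arid1a* KO tumors (log2 0.73). *Fermt3*, the kindlin of blood cells, fell with JSH-23 in WT (log2 -1.67, on 7 to 30 counts) and in *Arid1a* KO tumors (log2 -2.13, on 6 to 31 counts). *Itga2b*, the platelet alpha chain, was 1 of 4 tested of 7 integrin chains outside the 34 genes, and fell with JSH-23 in *Arid1a* KO tumors (log2 -0.65, standard error 0.122). The 5 platelet markers, *Itga2b* included, summed to 29.5 to 31.7 CPM in vehicle-treated *Arid1a* KO tumors and to 15.2 and 18.9 CPM with JSH-23, and *Gp9* had at most 3 counts in every sample. Within the sum *Ppbp* went from 244 and 287 to 119 and 137 counts and *Pf4* from 70 and 59 to 14 and 25, while *Gp1bb* went the other way, from 7 and 5 to 21 and 30 counts. The part of platelets in these values was not tested.

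Of 33 integrin ligands 26 were tested, with 3 called higher and 4 lower in vehicle-treated *Arid1a* KO against WT tumors (7.48% and 5.16% of all genes). With JSH-23, 2 and 7 were called in WT (5.55% and 10.2% of all genes) and 1 and 5 in *Arid1a* KO tumors (9.10% and 16.9% of all genes). The cell-surface ligands *Vcam1* and *Icam1*, bound by leukocyte integrins, rose in vehicle-treated *Arid1a* KO tumors (log2 0.80 and 0.79). They fell with JSH-23 in WT (log2 -1.20 and -1.84) and in *Arid1a* KO tumors (log2 -2.32 and -2.05). The interaction was -1.12 for *Vcam1* (adjusted p = 0.0325, edgeR) and -0.22 for *Icam1* (adjusted p = 0.754, edgeR). *Ccn2*, a matricellular ligand, was, with vehicle, at 53.7 and 51.6 CPM in the WT and at 24.7 and 25.6 CPM in the *Arid1a* KO samples and, with JSH-23, at 11.3 and 10.7 CPM and at 21 and 19.9 CPM, an interaction of 1.95 (standard error 0.119, adjusted p = 5.17e-23, edgeR).

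*Thbs1*, thrombospondin-1, had, with vehicle, 69 and 42 counts in the WT and 0 and 3 counts in the *Arid1a* KO samples, at least 21.1-fold higher in WT when set against 3 counts per library. With JSH-23 it had 36 and 2 counts in the WT and 2 and 0 in the *Arid1a* KO samples. The macrophage markers *Adgre1* (17 and 19 against 0 and 0 counts with vehicle) and *Csf1r* (21 and 24 against 2 and 6) were also lower in the *Arid1a* KO samples, and with JSH-23 *Adgre1* had 17 and 1 and *Csf1r* 15 and 1 counts in the same WT samples. *Cd68*, another macrophage marker, went the other way, with 110 and 127 counts in the WT and 301 and 378 in the *Arid1a* KO samples with vehicle. The part of macrophages in the *Thbs1* values was not tested. *Spp1*, osteopontin, a ligand of the alpha-v integrins, rose with JSH-23 from 877 and 878 CPM to 1603 and 1624 CPM in WT (log2 0.88) and from 938 and 957 CPM to 2046 and 2061 CPM in *Arid1a* KO tumors (log2 1.12). Of the 5 hemidesmosome genes that accompany *Itgb4*, 2 were called lower with JSH-23 in *Arid1a* KO tumors (16.9% of all genes) and 0 higher (9.10% of all genes). *Plec*, the plectin linker, fell from 1098 and 1124 CPM to 650 and 661 CPM (log2 -0.76, standard error 0.017). *Col17a1* (log2 -1.90) had 4 to 40 counts over all samples. By adjusted p alone *Dst* was lower too (log2 -0.56), while *Cd151* (log2 0.45) and *Cd9* (log2 0.51) were higher.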

How the data were processed

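The RNA-seq data covered 4 groups, each with 2 samples of cells sorted from Myc-CaP tumors, and groups followed the genotype and treatment labels. The authors aligned reads to GRCm38/mm10 with TopHat2 by their methods (HISAT2 by the submitters' processing notes) and deposited whole-number counts per gene from strand-specific HTSeq counting, not normalized. TPM values, also deposited by the authors, are counts divided by gene length and scaled per sample, which keep no depth. Keeping only the best match of a read can place reads of similar genes on either copy.

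The counts were filtered with edgeR's filterByExpr (13921 of 39089 genes kept), scaled with TMM factors from 0.949 to 1.03, and fitted with 4 group means over all 8 samples by the quasi-likelihood test of edgeR 4.0.16 in R 4.3.3. The 5 comparisons were the 2 genotypes under vehicle, the 2 genotypes under JSH-23, the treatments within WT, the treatments within *Arid1a* KO, and the interaction. CPM values use the TMM factors. The pipeline was tested on simulated data. The 2 samples of a group differed by more than sampling noise (chi-square per degree of freedom 1.46 to 1.57), so each was kept, and limits of 3 counts cover counting error only.

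Alternatives were DESeq2 1.42.0, library size alone, no filter, a minimum of 10 counts per sample, limma 3.58.1 on log2(TPM + 1) and log2(TPM + 0.1), a block for replicate number, a biological coefficient of variation of 0.1, only the groups compared, and leaving out each sample. All 34 genes were accounted for, by name or in counts, and *Itga10* passed the adjusted p in no comparison. From each further list, up to 3 genes with the largest rise and 3 with the largest fall among called genes averaging 1 CPM or more could be named. Some other genes were added after their values were seen (*Col17a1*, *Dst*, *Cd151*, *Cd9*, *Hoxb13*). Some genes that the rule would name are not reported here. The genes and lists were chosen with earlier results of these data known. Start windows came from RefSeq. The table of TPM values of the whole series was not used, since it repeats the samples' own values.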

Additional observations from a re-analysis of the deposited data

Results flagged for a closer look

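The JSH-23 effect differed between genotypes, by the test of the interaction itself, for 2 of the 27 tested genes at 1.5-fold or more. For *Itga3* the interaction was 0.61 on the log2 scale (0.6062 before rounding), with the 2 *Arid1a* KO samples with JSH-23 above those with vehicle and the 2 WT samples with JSH-23 below those with vehicle. For *Itgb7* it was -0.83 (-0.8311 before rounding), with lower levels under JSH-23 in both genotypes and the larger drop in *Arid1a* KO tumors. The cause was not tested in either gene.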

How the results depend on the processing

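Counts of the 27 tested members were recomputed under the settings listed in the methods. For *Arid1a* KO against WT with vehicle, the members called higher went from 1 to 0 in limma on log2(TPM + 1), and those higher by adjusted p went from 2 to 1 in DESeq2, in limma on log2(TPM + 0.1) and with a coefficient of variation of 0.1, which left 6 of 18 lower. With 1 sample left out, the members called higher ranged from 0 to 2, those higher by adjusted p from 1 to 2 and those called lower from 0 to 1. The same comparison with JSH-23 had 2 called higher, and 0 in DESeq2, with library size alone, in both limma fits and with a coefficient of variation of 0.1, and 1 with at least 10 counts in every sample. Higher by adjusted p were 3 of 6 in DESeq2, 1 with library size alone and in both limma fits, and 0 with a coefficient of variation of 0.1. Called lower were 0 in DESeq2, with at least 10 counts and in limma on log2(TPM + 1), and 2 in limma on log2(TPM + 0.1). Lower by adjusted p were 19 in both limma fits and 1 with a coefficient of variation of 0.1. With 1 sample left out, called higher ranged from 0 to 2, called lower from 0 to 1 and higher by adjusted p from 2 to 6.

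For JSH-23 in WT, called higher went from 1 to 0 in DESeq2, with at least 10 counts and in both limma fits, called lower from 3 to 1 in limma on log2(TPM + 1), higher by adjusted p from 6 to 2 in both limma fits and to 1 with a coefficient of variation of 0.1, and lower by adjusted p from 11 to 4 with the latter. With 1 sample left out, called higher ranged from 0 to 1. For JSH-23 in *Arid1a* KO tumors, higher by adjusted p went from 12 to 6 in both limma fits and to 5 with a coefficient of variation of 0.1, and lower from 9 to 5 with the latter, and called higher ranged from 0 to 1 with 1 sample left out. For the interaction, called higher went from 1 to 0 with library size alone, in both limma fits and with a coefficient of variation of 0.1. Higher by adjusted p went from 13 to 6 with library size alone, 2 in both limma fits and 0 with a coefficient of variation of 0.1, and lower from 2 to 4, to 5 on log2(TPM + 1) and 4 on log2(TPM + 0.1), and to 1. Called lower went from 1 to 2 with no filter. With 1 sample left out, called higher ranged from 1 to 2 and called lower from 1 to 2.

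Of 91 differences past the threshold, 11 changed sign under a scaling. On log2(TPM + 1) and log2(TPM + 0.1), with JSH-23, the *Arid1a* KO against WT differences were -0.13 and -0.13 for *Itgb1*, -0.13 and -0.13 for *Itgb3*, and -0.10 and -0.10 for *Vcl*, and with library size alone -0.0136 for *Itgb1* and -0.0142 for *Itgb3*. Those of JSH-23 in *Arid1a* KO tumors were -0.01 and -0.0101 for *Itgb5*, -0.0202 and -0.0204 for *Ilk*, -0.11 and -0.11 for *Ptk2*, and -0.09 and -0.0921 for *Zyx*. The interactions were -0.0192 and -0.0203 for *Itga6*, -0.0827 and -0.0834 for *Itgb5*, -0.0901 and -0.0916 for *Tln1*, and -0.0301 and -0.0302 for *Lims1*. The cause was not tested beyond the shift of the median of all genes that these scalings make.

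With the replicate number as a block, called lower in the interaction went from 1 to 2, with *Itga8* added, and no other call of a member changed. The labels do not say that a number marks shared animals, and deviations of same-numbered samples correlated between -0.007 and 0.0262. No pairing by number was detected, and deviations this close to counting noise cannot exclude one. Depth limits the 7 untested genes and the chains at 9 to 131 counts, for which changes near 1.5-fold lay within a few standard errors.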
